A study of Homo sapiens with 22 samples.

Results

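SLC7A11 and 8 further genes that NRF2 is known to switch on (NQO1, HMOX1, GCLM, GCLC, TXNRD1, SRXN1, OSGIN1 and ME1) were followed through RNA-seq of H1299, a line derived from a human non-small cell lung cancer. The group was put together because SLC7A11 was much lower after BRCA2 depletion in otherwise untreated cells, and the other genes were added as established NRF2 targets. All 9 were present among the 37908 genes of the count table, and all 9 passed the filter on low counts in every comparison. The untreated BRCA2 contrast chose SLC7A11, so its values are given below as a description, without a test.

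All cells carried an shRNA against BRCA2 that is switched on by doxycycline (DOX). BRCA2-deficient cells had received 2 µg/mL DOX for 3 days and BRCA2-proficient cells none. Each of these states was combined with a control siRNA or an siRNA against β-catenin (siβ-catenin), and with or without the GSK3 inhibitor LY2090314 (GSK3i) at 250 nM for 24 h, which gave 8 groups and 22 libraries. "Untreated" here means control siRNA without GSK3i. BRCA2-proficient untreated cells and BRCA2-proficient cells with siβ-catenin had 2 libraries each (replicates 2 and 3), and the other 6 groups had 3. No culture received DOX without the shRNA, so effects of DOX and of BRCA2 depletion cannot be told apart, and the cells are 1 line with 1 inducible construct.

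NRF2, encoded by NFE2L2, is a transcription factor that is held low by KEAP1, an adaptor that hands it to a ubiquitin ligase. Electrophiles and oxidants release it, after which it pairs with small MAF proteins on antioxidant response elements. GSK3 phosphorylates NRF2 and so marks it for another ligase, β-TrCP, the one that removes phosphorylated β-catenin. SLC7A11 is the cystine-importing subunit of the xCT exchanger and is anchored in the membrane by SLC3A2, and the imported cystine feeds glutathione synthesis. SLC7A11 is also a known target of ATF4, the factor of the amino acid and stress response.

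Antioxidant response elements share the core TGACNNNGC, often followed by A. RefSeq promoter windows (GRCh38.p14, 250 bases before to 50 after a start) were matched for 7 of the 9 genes, all except SLC7A11 and HMOX1, with 1 start each apart from TXNRD1, which has 2. The core followed by A was found on either strand in 2 of the 7, GCLM and TXNRD1, and in 3.94% of all genes with a window. TGACNNNGC with any next base, which includes every match to the longer motif, was found in 3 of the 7, with ME1 added, and in 16.1% of all genes. Sequence outside these windows was not searched, so a gene without a match here may hold the motif elsewhere. The upstream TXNRD1 window (chr12:104215529-104215828) held only the shorter core, and the match with A lay in the window of the downstream start (chr12:104286782-104287081), which is the one printed. The 150 bases before the start are printed 5′ to 3′ on the gene's own strand for these 3 genes, to show where the match lies in the genes whose values follow. Capitals mark the match, which reads in reverse complement in GCLM and TXNRD1.
GCLM, chr1:93909431-93909580 (minus strand): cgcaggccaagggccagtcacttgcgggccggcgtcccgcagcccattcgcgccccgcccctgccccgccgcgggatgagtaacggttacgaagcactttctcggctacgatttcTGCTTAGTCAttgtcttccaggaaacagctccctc
TXNRD1, downstream start, chr12:104286882-104287031 (plus strand): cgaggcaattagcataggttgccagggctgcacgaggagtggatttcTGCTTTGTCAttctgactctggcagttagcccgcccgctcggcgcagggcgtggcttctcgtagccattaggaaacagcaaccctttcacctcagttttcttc
ME1, chr6:83431052-83431201 (minus strand): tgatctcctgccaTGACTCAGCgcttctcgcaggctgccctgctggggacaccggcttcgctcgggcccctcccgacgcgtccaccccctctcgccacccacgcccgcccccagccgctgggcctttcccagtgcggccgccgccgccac

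Libraries held 18.9 to 29.3 M counts. Levels below are normalised counts (counts divided by DESeq2 size factors), and in bulk RNA fewer cells and less RNA per cell cannot be told apart. Where groups are said not to overlap, the share of all genes without overlap was not counted. Such statements are a description of the libraries. BRCA2 ranged from 71.4 to 225 in BRCA2-deficient libraries and from 514 to 1111 in proficient ones, and CTNNB1, which encodes β-catenin, from 977 to 2217 with siβ-catenin and from 5206 to 8669 without. The epithelial keratin KRT8 was at 2037 to 8200, and the leukocyte marker PTPRC at 0 to 1.57. A pair of siβ-catenin libraries from proficient cells went against their GSK3i labels on 3 genes that were picked after their values were seen. The library labelled siβ-catenin replicate 2 had YPEL2 at 35.3, ABTB1 at 144 and PDCD4 at 291, where the other libraries without GSK3i had 126 to 368, 617 to 1807 and 1056 to 1920. The library labelled GSK3i and siβ-catenin replicate 2 had 304, 1303 and 1998, where the other GSK3i libraries had 9.02 to 44.3, 89.1 to 232 and 105 to 163. On these genes each of the pair thus had levels near those of the other's label. AXIN2, a β-catenin target, was at 73.1 in the latter library, where the other siβ-catenin libraries with GSK3i had 117 to 227. In the former it was at 67.2, beside 65 in the other replicate, so AXIN2 did not set that library apart from its label. Both were kept under their labels. The log2 fold changes of SLC7A11 and HMOX1 that rest on them are also given without them or as a range with each library left out. For other genes this was done only in part.

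Scaled to exon length, the 9 genes spanned a wide range of levels. In BRCA2-proficient untreated cells (n = 2) the thioredoxin reductase TXNRD1 stood at 1772 ± 131 (SD) normalised counts per kb and the quinone reductase NQO1 at 870.1 ± 8.1. They were followed by HMOX1 (haem oxygenase 1) at 296 ± 9.01 per kb and GCLM (modifier subunit of glutamate-cysteine ligase) at 293 ± 35.9, whose libraries overlapped. ME1 (cytosolic malic enzyme, a source of NADPH) was at 188 ± 10.6, GCLC (the catalytic subunit of that ligase) at 149 ± 3.36, OSGIN1 (oxidative stress induced growth inhibitor) at 121 ± 43.7, SLC7A11 at 100.3 ± 30.1 and SRXN1 (sulfiredoxin, which repairs peroxiredoxins) at 18.2 ± 3.6 per kb. GCLC overlapped OSGIN1, and OSGIN1 overlapped SLC7A11. In BRCA2-deficient untreated cells (n = 3) the upper part of this order was the same, but SLC7A11, at 19.2 ± 8.41 per kb, overlapped SRXN1 at 18.7 ± 5.23.

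**Figure D1:**
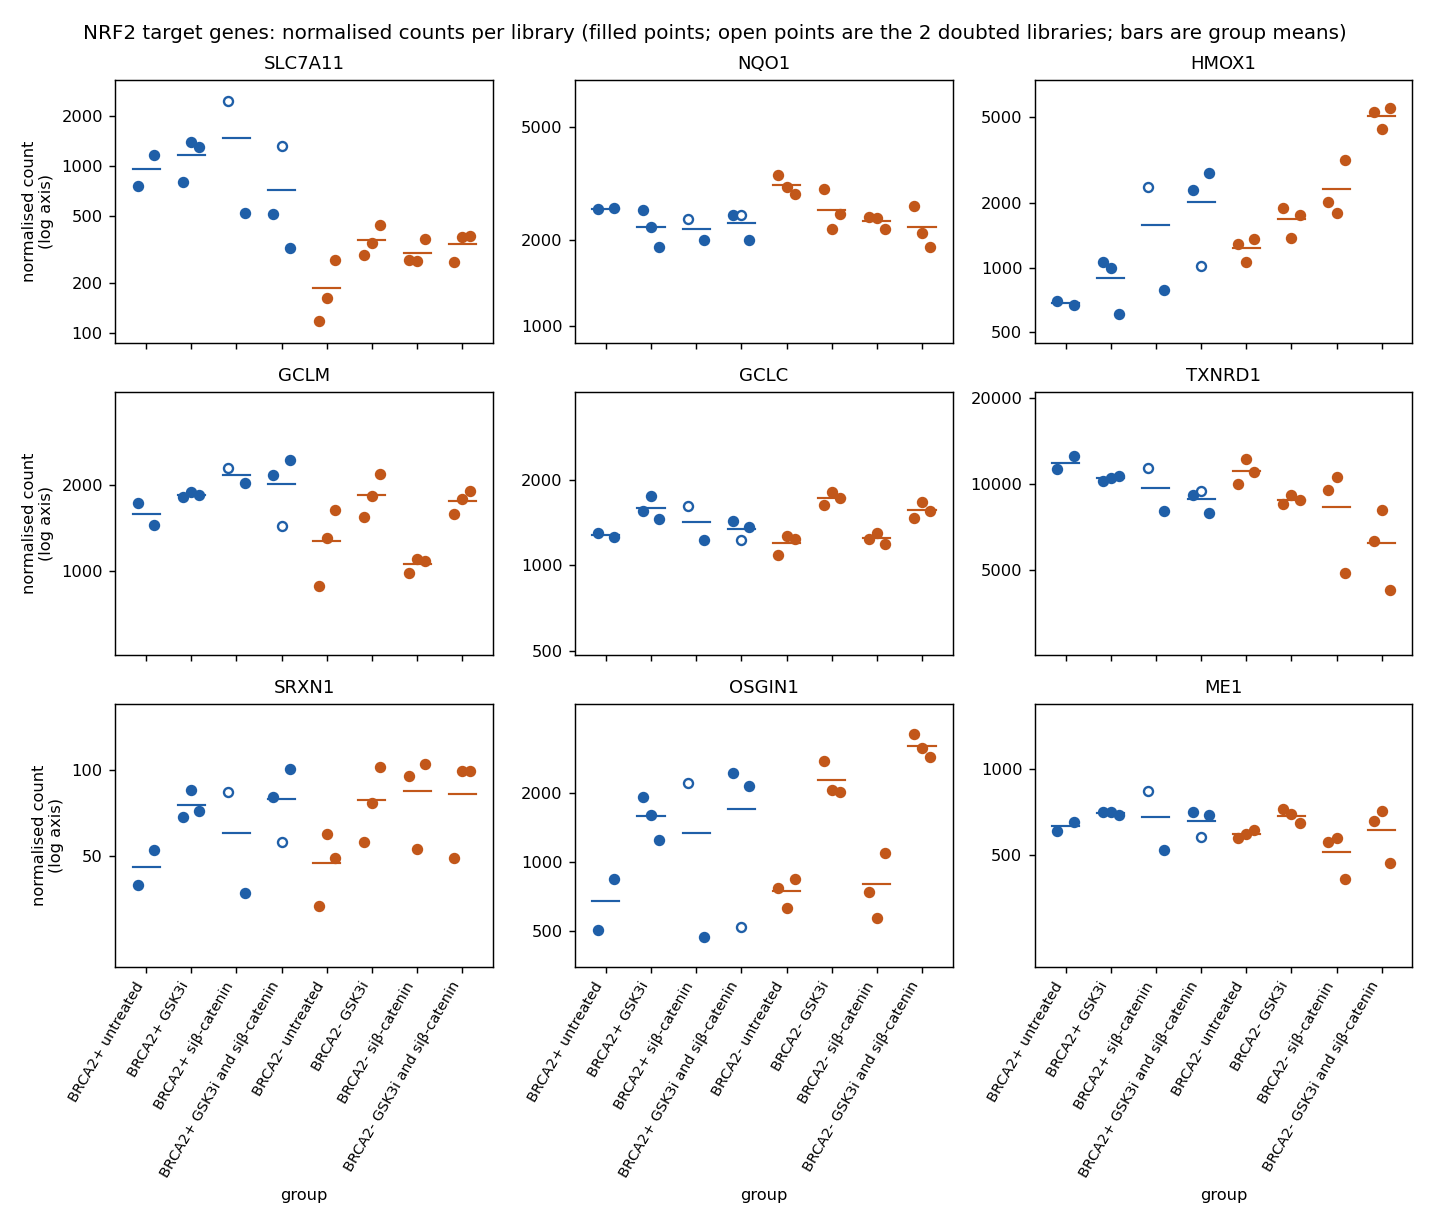
Normalised counts of the 9 genes in each of the 22 libraries, on a log axis, by group (BRCA2+ proficient, BRCA2- deficient); points are libraries, bars group means, and open points the libraries that went against their GSK3i labels. SLC7A11 spans 118 to 442 in deficient cells and 325 to 2452 in proficient cells, while OSGIN1 is high in groups with GSK3i and HMOX1 highest in deficient cells with both agents.

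SLC7A11 (ENSG00000151012, minus strand of chromosome 4 at 139085251 to 139163503 on GRCh37) was chosen on its difference with BRCA2 status. In untreated cells it was at 762 and 1173 normalised counts in the proficient libraries and at 118, 162 and 275 in the deficient ones. The groups were well apart, with the highest deficient library far under the lowest proficient one. The log2 fold change was -2.40 ± 0.35 (SE), and these are the values the gene was chosen on. HMOX1 stood at 697 and 667 in proficient and 1279, 1058 and 1352 in deficient untreated libraries, a log2 fold change of 0.83 ± 0.19 from the same contrast. The other 7 genes lay between -0.34 for GCLM and 0.25 for NQO1 on the log2 scale. Of all genes tested in this contrast, 6.92% were called (2.77% higher, 4.15% lower), where a call is an adjusted p under 0.05 with an absolute log2 fold change above 0.5. The 2 genes of the 9 that met these limits, SLC7A11 and HMOX1, are not read against that share, because the contrast was used in the choice.

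Under GSK3i, in libraries outside the untreated contrast, the BRCA2 comparison was tested. The members were chosen with earlier results of these data known, so this test is not fully independent of the choice. SLC7A11 was at 802, 1409 and 1310 normalised counts in proficient cells and at 293, 348 and 442 in deficient cells. Every deficient library was under every proficient one. SLC7A11 fell by 1.70 on the log2 scale (SE 0.25, 95% interval -2.20 to -1.21, DESeq2 adjusted p = 4.54e-09), and it stayed called with any 1 library left out (-1.92 to -1.56). HMOX1 moved the other way, from 1063, 1000 and 606 in proficient to 1897, 1375 and 1758 in deficient cells. The groups did not overlap, and HMOX1 rose by 0.91 ± 0.23 (95% interval 0.46 to 1.36, DESeq2 adjusted p = 0.00217). The HMOX1 call was lost in edgeR (adjusted p = 0.0572) and in 1 model over all groups (DESeq2 adjusted p = 0.0728). Thus 2 of the 9 genes were called, 1 in each direction, where 6.81% of all genes were called (3.76% higher, 3.05% lower).

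The remaining NRF2 targets did not pass the test in that comparison. OSGIN1 was at 1924, 1599 and 1246 in proficient and 2755, 2054 and 2021 in deficient cells, with all deficient libraries higher. Its log2 fold change was 0.51 ± 0.20 (DESeq2 adjusted p = 0.085), and with replicate number as a block, which pairs these samples, it was called (0.52, DESeq2 adjusted p = 8.85e-05). TXNRD1 was at 10281, 10489 and 10651 against 8470, 9178 and 8771, again without overlap, at -0.25 on the log2 scale (DESeq2 adjusted p = 0.163). The genes of glutathione synthesis did not separate by BRCA2 status: GCLM had a log2 fold change of -0.00 and GCLC of 0.12. NQO1 was at 0.20, SRXN1 at 0.07 and ME1 at -0.04.

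With siβ-catenin and no GSK3i, SLC7A11 was at 2452 and 523 in proficient cells and at 272, 270.5 and 366 in deficient cells. The library at 2452 is the one labelled siβ-catenin replicate 2 that went against its label. SLC7A11 fell by 2.32 on the log2 scale (SE 0.78, DESeq2 adjusted p = 0.0136), and without that library the value was -0.82 (DESeq2 adjusted p = 0.0213), with the single proficient library left assumed to vary like the others. The call was lost without deficient replicate 1 (-2.24, DESeq2 adjusted p = 0.109) and without deficient replicate 2 (-2.24, DESeq2 adjusted p = 0.0933). In this comparison 27.4% of all genes were called (13.6% higher, 13.8% lower), and 2 of the 9 were called, both lower.

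GCLM, one of the genes with the longer motif in a promoter window, was the other. It stood at 2302 and 2034 in proficient cells and at 979.9, 1101 and 1080 in deficient cells with siβ-catenin. Its levels in the deficient libraries were about as low as in the lowest untreated deficient library, at 882, and the groups did not overlap. GCLM fell by 1.06 (SE 0.16, DESeq2 adjusted p = 4.53e-09), and by 0.98 without the doubted library (DESeq2 adjusted p = 5.16e-05). HMOX1 was at 2358 and 785 in proficient and 2022, 1781 and 3159 in deficient cells, with a log2 fold change of 0.54 ± 0.65 (DESeq2 adjusted p = 0.566). Without the library at 2358 the HMOX1 value was 1.53 (DESeq2 adjusted p = 4.66e-06). OSGIN1 went from -0.76 ± 0.83 (DESeq2 adjusted p = 0.523) to 0.73 (DESeq2 adjusted p = 0.082) in the same way, and to -1.49 (DESeq2 adjusted p = 1.37e-05) when proficient replicate 3 was left out instead. The direction of OSGIN1 was therefore set by which proficient library was kept.

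With GSK3i and siβ-catenin together, SLC7A11 was at 515, 1315 and 325 in proficient cells and at 266, 374 and 379 in deficient cells. The library at 1315 is the second doubted one, and the groups overlapped. The log2 fold change was -1.09 ± 0.61 (95% interval -2.28 to 0.10, DESeq2 adjusted p = 0.306). It was -0.32 without the doubted library (DESeq2 adjusted p = 0.514), and -1.44 without proficient replicate 3 (DESeq2 adjusted p = 0.00163). HMOX1 had its highest levels here, at 5255, 4390 and 5497 in deficient cells against 2288, 1015 and 2757 in proficient cells. HMOX1 rose by 1.32 ± 0.30 (95% interval 0.73 to 1.90, DESeq2 adjusted p = 0.000464), and by 0.99 (DESeq2 adjusted p = 1.03e-06) without the doubted library, while edgeR did not call it (adjusted p = 0.0523). TXNRD1 was at -0.52 ± 0.23 (DESeq2 adjusted p = 0.155), and the replicate block, which pairs these samples, brought it past the limits (-0.56, DESeq2 adjusted p = 0.0121). HMOX1 was the 1 gene of the 9 called, where 7.74% of all genes were (3.38% higher, 4.36% lower).

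**Figure D2:**
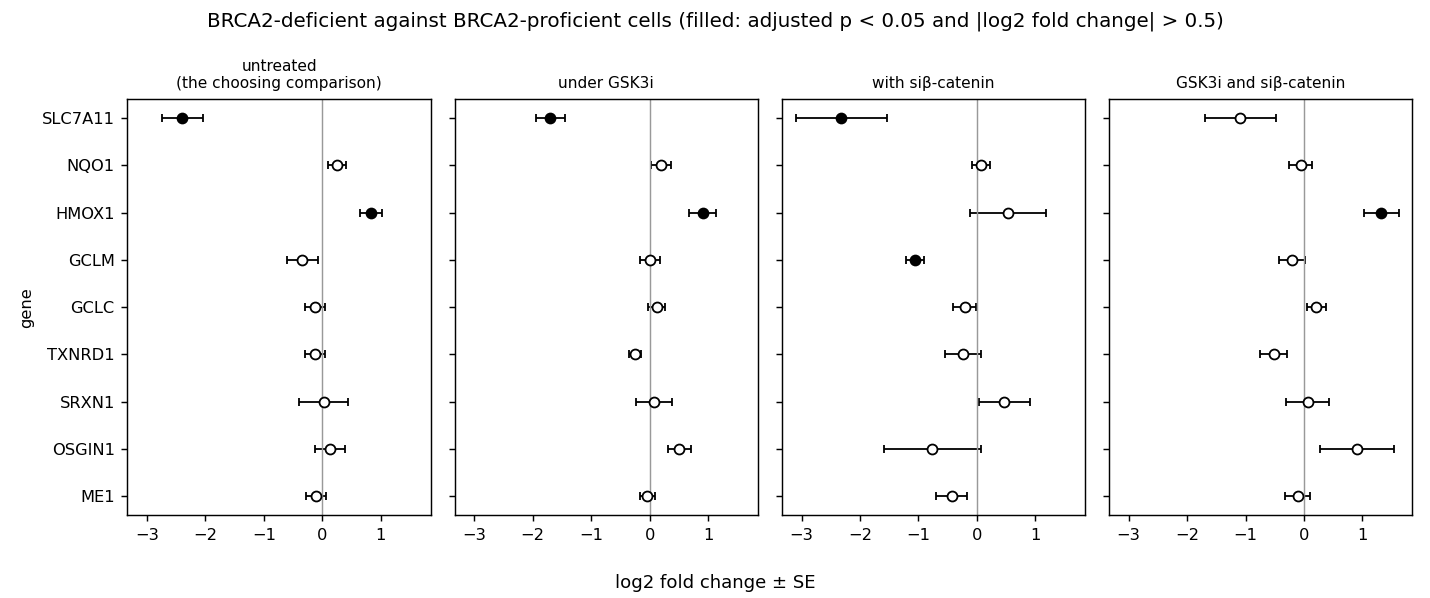
Log2 fold changes (deficient over proficient, error bars SE) of the 9 genes in the 4 BRCA2 comparisons; filled points were called, and the untreated comparison is the one SLC7A11 was chosen on. SLC7A11 lies at -2.40, -1.70, -2.32 and -1.09, and HMOX1 at 0.83, 0.91, 0.54 and 1.32, for untreated, GSK3i, siβ-catenin and both.

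GSK3 inhibition moved OSGIN1 in both BRCA2 states. The comparisons with untreated cells share those libraries with the contrast SLC7A11 was chosen on. In proficient cells OSGIN1 went from 502 and 845 normalised counts to 1924, 1599 and 1246, and in deficient cells from 769, 631 and 843 to 2755, 2054 and 2021. In each state every GSK3i library was above every untreated one. OSGIN1 rose by 1.22 ± 0.22 in proficient cells (DESeq2 adjusted p = 5.09e-07, 26.1% of all genes called, 11.8% higher and 14.3% lower) and by 1.60 ± 0.20 in deficient cells (DESeq2 adjusted p = 1.28e-13, 25.4% called, 11.6% higher and 13.8% lower). The proficient call was lost in 1 model over all groups (DESeq2 adjusted p = 0.1). Exons of MLYCD overlap those of OSGIN1 on the same strand. MLYCD, read after its values were seen, was at 594 and 561 in proficient and 1013, 882 and 798 in deficient untreated libraries, and at 460.0, 478 and 322 and 606, 465 and 435 under GSK3i. It was thus lower with GSK3i, where OSGIN1 was higher. With BRCA2 depletion in untreated cells MLYCD was at 0.61 ± 0.18 on the log2 scale and OSGIN1 at 0.13 ± 0.26. How reads were shared between these genes was not tested.

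In proficient cells OSGIN1 was the 1 gene of the 9 called under GSK3i, and in deficient cells OSGIN1 and GCLC were called, both higher. SLC7A11 also met the limits there but is not counted, since it was chosen on these untreated libraries. SLC7A11 was at 118, 162 and 275 in untreated and 293, 348 and 442 in GSK3i-treated deficient cells. The groups did not overlap, and both lay under all proficient libraries with the control siRNA. Its log2 fold change, 0.96 ± 0.32 (0.72 to 1.37 with any 1 library left out), is given without a test, since the gene was chosen for its low values in these untreated libraries. The same holds for its value of 0.26 ± 0.23 in proficient cells, whose untreated libraries were part of that choice. GCLC rose in deficient cells by 0.52 ± 0.15 (DESeq2 adjusted p = 0.00231), from 1089, 1269 and 1243 to 1637, 1820 and 1721, and was not called without untreated replicate 1 (0.45) or GSK3i replicate 2 (0.49). GCLM, from 882, 1298 and 1628 to 1538, 1828 and 2183, was at 0.54 ± 0.25 (DESeq2 adjusted p = 0.0874), and was called with the replicate block that pairs these samples (0.57, DESeq2 adjusted p = 1.75e-06).

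With β-catenin depleted as well, GSK3i raised 3 of the 9 genes in deficient cells, where 20.1% of all genes were called (8.56% higher, 11.5% lower). OSGIN1 went from 737, 567 and 1097 to 3613, 3143 and 2850 and rose by 2.01 ± 0.22 (DESeq2 adjusted p = 7.7e-17). HMOX1 went from 2022, 1781 and 3159 to 5255, 4390 and 5497 and rose by 1.13 ± 0.21 (DESeq2 adjusted p = 3.92e-06). GCLM went from 979.9, 1101 and 1080 to 1578, 1791 and 1912 and rose by 0.74 ± 0.15 (DESeq2 adjusted p = 8.82e-06). None of these 3 overlapped between the groups, which is a description without the share over all genes. SLC7A11, at 272, 270.5 and 366 before and 266, 374 and 379 after, had a log2 fold change of 0.17 ± 0.21 (95% interval -0.24 to 0.58, DESeq2 adjusted p = 0.613).

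The same comparison in proficient cells holds both doubted libraries, and DESeq2 called 0.0529% of all genes (0.047% higher, 0.00588% lower) and none of the 9. OSGIN1 was at 2207 and 471 without GSK3i and at 2447, 522 and 2138 with it, so that in each group replicate 2 stood apart from the rest. Its log2 fold change was 0.35 ± 1.06, and that of HMOX1 0.37 ± 0.75. With both libraries left out, so that 1 library without GSK3i remained and was assumed to vary like the others, OSGIN1 was at 2.29 (DESeq2 adjusted p = 3.14e-33) and HMOX1 at 1.69 (DESeq2 adjusted p = 3.15e-18). SLC7A11 was then at -0.31 (DESeq2 adjusted p = 0.6). The 9 genes called over the whole table became 1099 when these libraries were left out.

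Depletion of β-catenin under GSK3i was followed by higher HMOX1. In deficient cells HMOX1 went from 1897, 1375 and 1758 with the control siRNA to 5255, 4390 and 5497 with siβ-catenin. The groups were far apart, and HMOX1 rose by 1.59 ± 0.18 (95% interval 1.23 to 1.94, DESeq2 adjusted p = 2.35e-15) as the 1 gene of the 9 called, where 5.52% of all genes were (2.95% higher, 2.57% lower). In proficient cells HMOX1 went from 1063, 1000 and 606 to 2288, 1015 and 2757, and the doubted library at 1015 lay inside the control range. HMOX1 rose by 1.21 ± 0.33 (DESeq2 adjusted p = 0.00751), again as the 1 gene called, where 5.1% of all genes were (3.18% higher, 1.92% lower). Without the doubted library the HMOX1 value was 1.52 (DESeq2 adjusted p = 7.21e-10). With each library left out in turn, 0 to 3 of the 9 genes were called in proficient cells.

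That proficient HMOX1 call was lost with the replicate block that pairs these samples (1.13, DESeq2 adjusted p = 0.268), in edgeR (adjusted p = 0.128), and without control siRNA replicate 3 (0.99), siβ-catenin replicate 1 (1.10) or siβ-catenin replicate 3 (0.92). SLC7A11 was at -0.68 ± 0.64 in proficient cells (DESeq2 adjusted p = 0.615), and at -1.47 without the doubted library (DESeq2 adjusted p = 9.37e-07), when 515 and 325 with siβ-catenin are set against 802, 1409 and 1310. In deficient cells it was at -0.09 ± 0.24 (95% interval -0.56 to 0.37, DESeq2 adjusted p = 0.919). OSGIN1 was at 0.12 ± 0.64 in proficient cells (-0.24 to 0.55 with any 1 library left out). In deficient cells it was at 0.49 ± 0.18 (DESeq2 adjusted p = 0.0803).

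**Figure D3:**
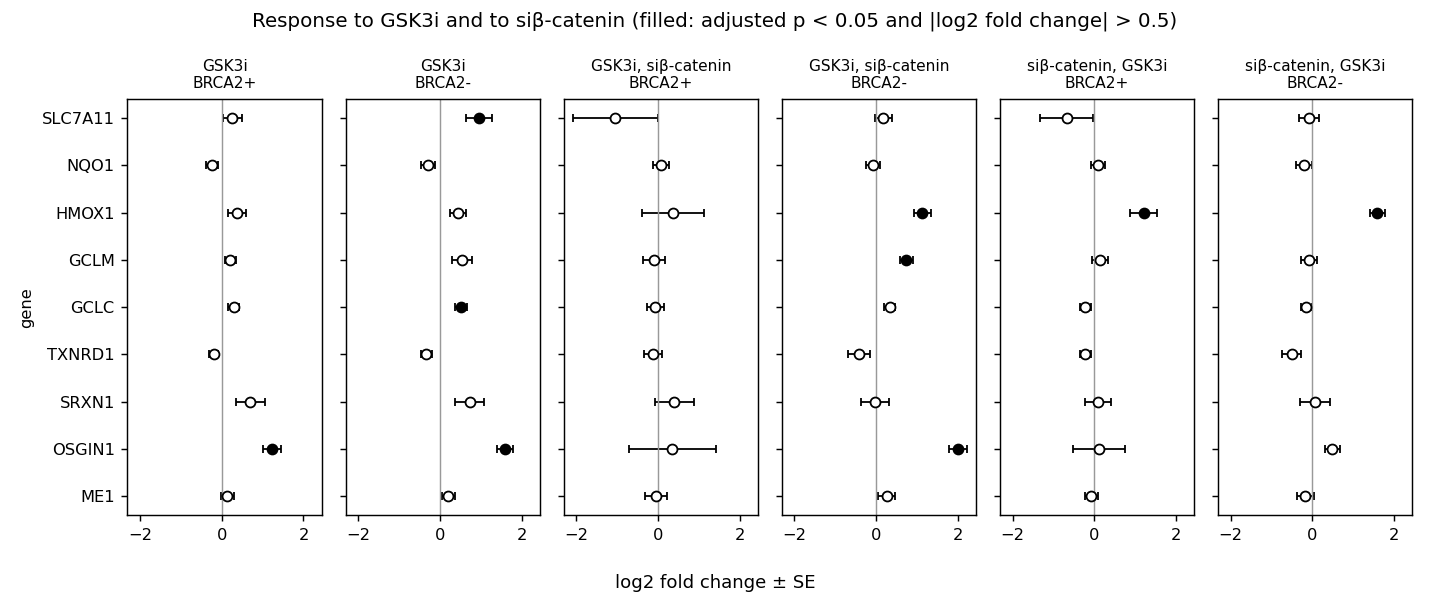
Log2 fold changes (error bars SE) of the 9 genes with GSK3i (4 comparisons) and with siβ-catenin under GSK3i (2 comparisons); filled points were called. SLC7A11 in the comparisons with untreated cells is a description, since those libraries chose it. OSGIN1 lies at 1.22, 1.60 and 2.01 with GSK3i outside the comparison of proficient siβ-catenin cells, whose error bars are widest, and HMOX1 at 1.21 and 1.59 with siβ-catenin.

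The size of the BRCA2 difference in SLC7A11 was set against treatment by interaction terms. With siβ-catenin, the change under GSK3i differed between deficient and proficient cells by 1.22 ± 0.95 on the log2 scale (95% interval -0.64 to 3.08, DESeq2 adjusted p = 0.526), and by 0.48 without both doubted libraries (DESeq2 adjusted p = 0.999). Under GSK3i, the change with siβ-catenin differed by 0.61 ± 0.55 (95% interval -0.47 to 1.70, DESeq2 adjusted p = 1). This fit holds 1 doubted library, and its value ran from 0.26 to 1.39 with any 1 library left out. None of the 9 genes passed an adjusted p of 0.05 in either interaction, where 0.439% and 0.0057% of all genes did.

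NQO1, TXNRD1, SRXN1 and ME1 were called in none of the 10 comparisons as fitted. Over the 107 alternative fits of those comparisons, NQO1 was called in 0, ME1 in 1, SRXN1 in 2 and TXNRD1 in 4. NQO1, the most used reporter of NRF2 activity, spanned only 1894 to 3390 normalised counts over all 22 libraries. Its lowest library was from deficient cells with both agents and its highest from untreated deficient cells. SRXN1 had 33.3 to 105 normalised counts, and its exons overlap those of ENSG00000270299 on the same strand, and reads from the pair could have been divided or dropped in counting.

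SLC7A11 was also set against the other 8 genes within each library, as its log2 level minus their median. The difference was -0.32 and 0.18 in the 2 proficient untreated libraries, and -3.05 to -2.23 in the deficient untreated ones, the contrast it was chosen on. In the other deficient groups it ran from -2.94 to -1.64. In proficient cells it ran from -1.07 to -0.04 under GSK3i and was -0.91 and 0.12 with siβ-catenin. With both agents it was -2.67, -2.11 and 0.24 in proficient cells, so that the 2 libraries other than the doubted one, at -2.67 and -2.11, lay inside the range of the deficient groups. Over the 22 libraries, which share treatments, the Pearson correlation of SLC7A11 with the other members on the log2 scale ran from -0.41 for NQO1 to 0.50 for GCLM. With BRCA2 it was 0.82, and 0.77 over the 17 libraries left without the 5 untreated ones that SLC7A11 was chosen on. Among 11897 genes with a mean of at least 100 normalised counts, the 5 most like SLC7A11 were ZNF568, VLDLR, ASNS, SESN2 and SLC7A1, each at a Pearson r of 0.92 over 22 libraries and between 0.89 and 0.92 over the 20 without the doubted ones. Without the 5 untreated libraries these 5 genes had values of 0.90 to 0.93, but the libraries left were among those they were picked on. On the means of the 8 groups their r was 0.94 to 0.97, and they ranked from 13 (ZNF568) to 165 (SLC7A1). By Spearman correlation over the 22 libraries they ranked from 1 (ZNF568) to 50 (ASNS). All but ZNF568 are on the list of ATF4 targets described further on, among them ASNS (asparagine synthetase) and SLC7A1 (a carrier of cationic amino acids). That list was chosen with earlier results of these data known.

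Neither the factor nor its inhibitor moved past the limits. NFE2L2 ranged from 1786 to 3140 normalised counts and KEAP1 from 2074 to 3073 over all libraries, and neither was called in any of the 10 comparisons as fitted. SLC3A2, the partner of SLC7A11, did not share its BRCA2 difference under GSK3i. It was at 6827, 6504 and 5954 in proficient and 7437, 5588 and 7117 in deficient cells, with a log2 fold change of 0.06 ± 0.15. The BRCA2 difference of SLC3A2 was -0.51 ± 0.25 in untreated cells and 0.21 ± 0.17 with both agents, neither called. With siβ-catenin SLC3A2 was called lower (-0.90 ± 0.35, DESeq2 adjusted p = 0.0346). That value holds a doubted library and ran from -1.45 to -0.05 with any 1 library left out. With GSK3i against untreated cells, SLC3A2 rose by 0.83 ± 0.20 in proficient cells (DESeq2 adjusted p = 0.000175), from 2578 and 4566. In deficient cells it rose by 1.39 ± 0.18 (DESeq2 adjusted p = 6.21e-13), from 2824, 2271 and 2573. ATF4 mRNA was read after its values were seen, so its p is no independent test. It fell with BRCA2 depletion under GSK3i by 0.60 on the log2 scale (SE 0.18, DESeq2 adjusted p = 0.0132). It went from 12468, 12579 and 10510 in proficient to 9924, 7164 and 6581 in deficient cells, without overlap. The BRCA2 difference of ATF4 was -0.62 ± 0.19 in untreated cells. It was -1.09 ± 0.32 with siβ-catenin and -0.22 ± 0.18 with both agents (DESeq2 adjusted p = 0.535), where each fit holds a doubted library. With GSK3i against untreated cells ATF4 rose by 0.85 ± 0.15 in proficient and 0.88 ± 0.20 in deficient cells.

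**Figure D4:**
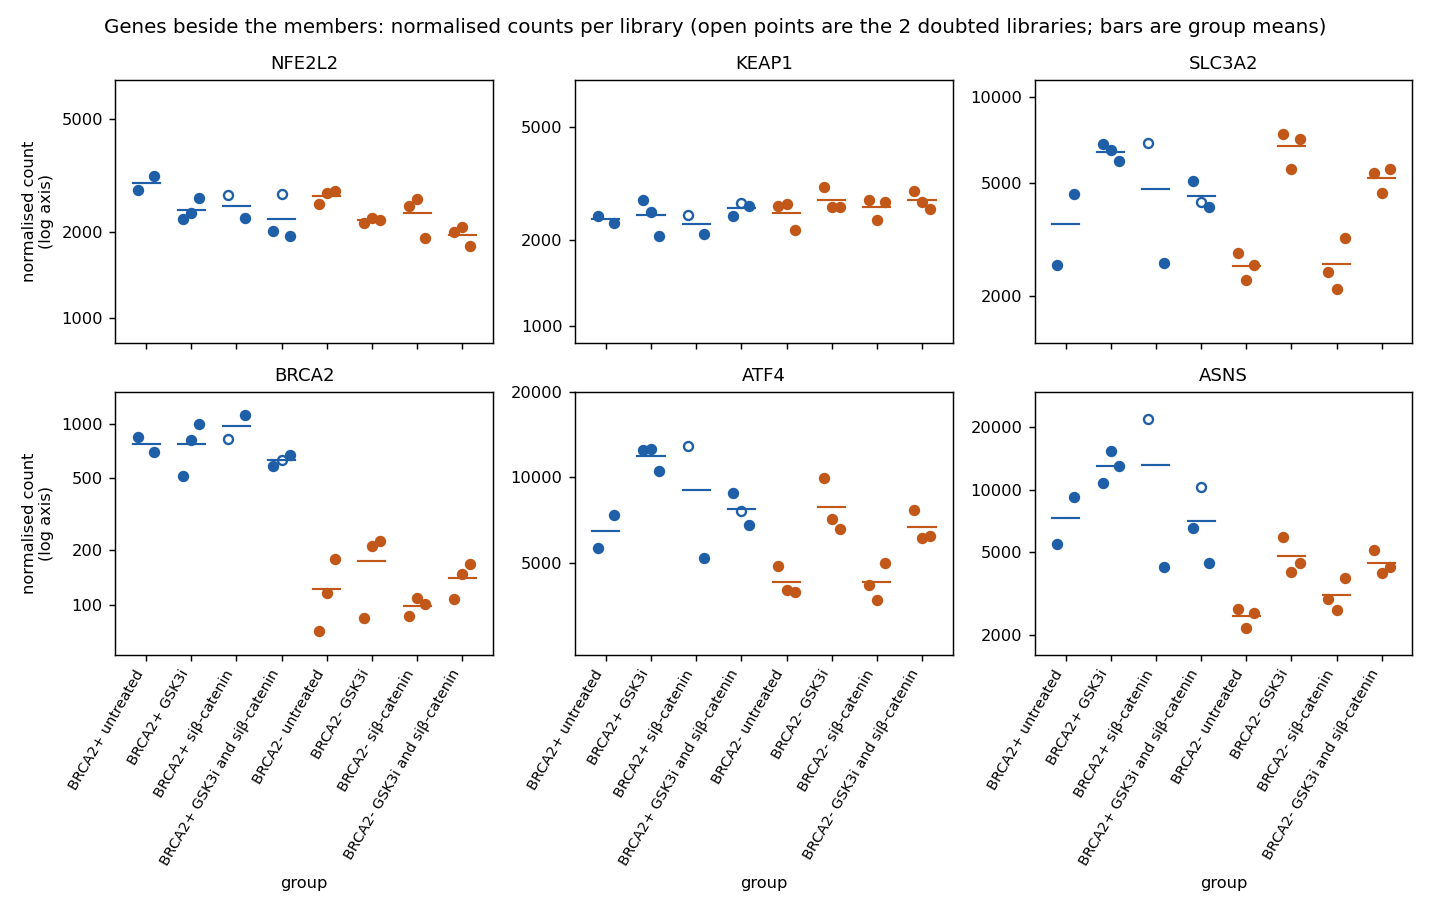
Normalised counts in each library, on a log axis, of NFE2L2 (NRF2), KEAP1, SLC3A2, BRCA2, ATF4 and ASNS, by group; points are libraries, bars group means, and open points the libraries that went against their labels. NFE2L2 stays within 1786 to 3140 and KEAP1 within 2074 to 3073, while BRCA2 splits into 71.4 to 225 and 514 to 1111.

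Wider lists, chosen with earlier results of these data known, place the 9 genes among their pathways. Of 16 NRF2 regulators (KEAP1, MAF partners, BACH1, kinases and ligase parts), 0 were called with BRCA2 depletion under GSK3i and a median log2 fold change of -0.08 stood beside -0.00 over all genes. With GSK3i, 0 were higher and 4 lower in proficient cells, and in deficient cells 2 were higher and 2 lower. These counts are near the background, with 26.1% and 25.4% of all genes called in the 2 states. The small MAF gene MAFG rose by 0.81 ± 0.17 in deficient cells, and MAFK fell by 1.13 in proficient cells (SE 0.19). MAFF, a further small MAF gene, fell in both states, by 1.70 in proficient (SE 0.59) and 0.85 in deficient cells (SE 0.27).

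Of 32 further NRF2 targets, 30 were tested in the BRCA2 comparison under GSK3i, and 5 were called higher and 0 lower (median 0.22), where 3.76% of all genes were called higher and 3.05% lower. ABCC3, an export pump for organic anions, rose by 1.42 ± 0.25 (DESeq2 adjusted p = 1.44e-06), and FTH1, the ferritin heavy chain, rose by 0.79 ± 0.18 (DESeq2 adjusted p = 0.00052). With GSK3i in proficient cells 4 were higher and 2 lower, with CBR1 (carbonyl reductase) at 0.65 ± 0.16 and ABCC3 at -2.13 ± 0.28. In deficient cells 2 were higher and 2 lower, and GSR (glutathione reductase) rose by 0.50 ± 0.15. With 29 and 30 tested, both counts are under the background share, since 26.1% and 25.4% of all genes were called.

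Of 25 genes of cystine and glutathione handling, 21 were tested in the BRCA2 comparison under GSK3i, with 3 higher and 6 lower (median 0.02), where 3.76% of all genes were called higher and 3.05% lower. CHAC1, which degrades glutathione, fell by 2.40 (SE 0.19, DESeq2 adjusted p = 3.09e-32), and CTH, which makes cysteine from cystathionine, fell by 1.87 (SE 0.22, DESeq2 adjusted p = 3.32e-14). SLC7A5, the large neutral amino acid carrier that also pairs with SLC3A2, fell by 1.22 (SE 0.18). CHAC1, SLC7A5, SLC1A4 and SLC3A2 are also on the list of ATF4 targets. With GSK3i, 10 were higher and 1 lower in proficient cells, and 10 were higher and 3 lower in deficient cells, TFRC (transferrin receptor) at 1.38 ± 0.13 and 1.58 ± 0.22. Of the 21 and 22 tested, these stand beside 11.8% and 11.6% of all genes called higher and 14.3% and 13.8% lower.

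Of 24 ATF4 targets, 0 were called higher and 17 lower with BRCA2 depletion under GSK3i, where 3.76% of all genes were called higher and 3.05% lower. The median was -0.76, and that of all genes -0.00. DDIT4 fell by 2.77 (SE 0.25, DESeq2 adjusted p = 5.17e-25), SESN2 by 2.26 (SE 0.16, DESeq2 adjusted p = 3.27e-42) and ASNS by 1.45 (SE 0.19, DESeq2 adjusted p = 2.48e-11). With siβ-catenin 9 were lower and 0 higher (median -1.13), beside 13.8% of all genes lower, which became 3 lower and 1 higher (median -0.15) without the doubted library. With both agents 6 were lower and 0 higher (median -0.42), beside 4.36% of all genes lower, or 3 lower and 1 higher (median -0.25) without it. With GSK3i 13 of the 24 were higher and 1 lower in proficient cells, and 16 higher and 2 lower in deficient cells, where 11.8% and 11.6% of all genes were called higher. With siβ-catenin under GSK3i in proficient cells 12 were lower and 0 higher (median -0.54), beside 1.92% of all genes lower, 16 were lower without the doubted library, and edgeR called 1. In deficient cells 3 were lower and 2 higher (median -0.09), beside 2.57% of all genes lower and 2.95% higher, and edgeR called 0. SLC7A11 was counted on none of these lists.

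**Figure D5:**
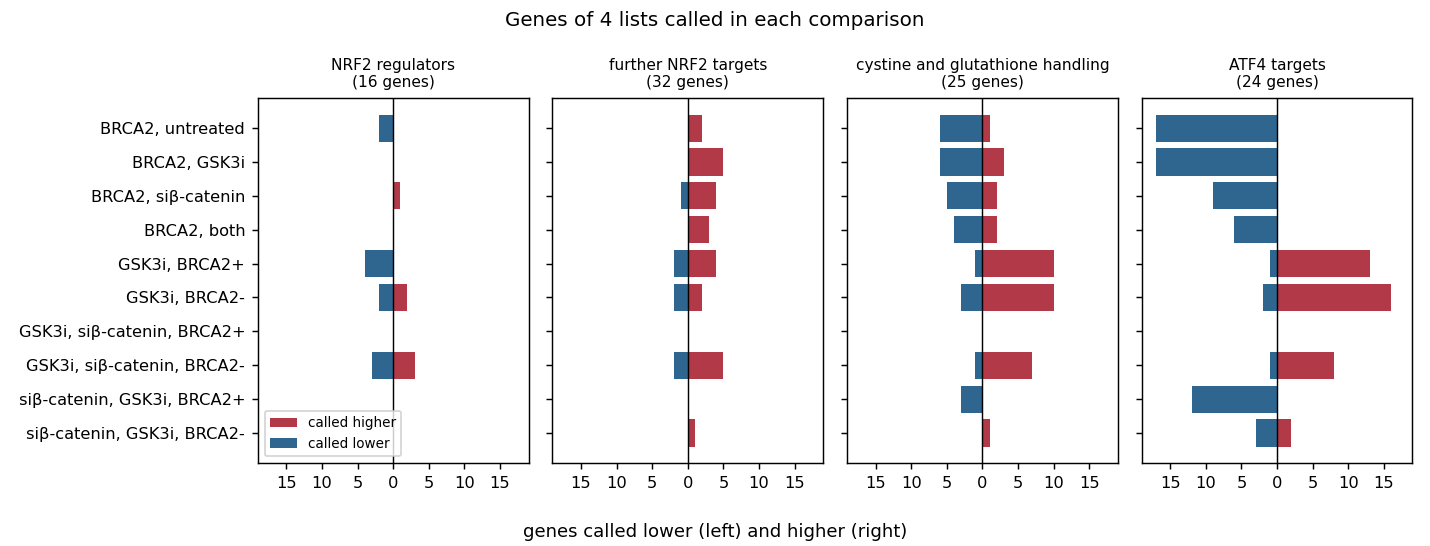
Numbers of genes called lower and higher on 4 lists (NRF2 regulators, further NRF2 targets, cystine and glutathione handling, ATF4 targets) in each of the 10 comparisons. ATF4 targets have 17 of 24 lower with BRCA2 depletion under GSK3i and 13 and 16 higher with GSK3i, while further NRF2 targets have at most 5 called in 1 direction.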

How the data were processed

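Poly(A)-selected, strand-specific RNA-seq libraries from 22 cultures were deposited as 1 table of raw counts per gene. The authors made these counts with HISAT2 2.0.4, SAMtools 1.4, Picard 1.9.2 and featureCounts 1.5.0 on hg19, per the submitters' processing notes. The Ensembl release and the strand setting are not given in the sources used here. Gene names were matched for 29629 of 37908 IDs, and gene positions and exon lengths were read from GENCODE annotation on GRCh37.

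Each comparison was fitted on its own libraries with DESeq2 1.42.0 (Wald test, R 4.3.3) after genes with under 10 counts in more than 3 libraries were dropped, and p-values were adjusted by Benjamini-Hochberg over all genes tested. Interactions were called on the adjusted p alone. Alternatives were edgeR 4.0.16 (quasi-likelihood, TMM), DESeq2 with TMM factors, no filter, a replicate block, 1 model over all groups and each library left out. Leaving out both doubted libraries was added after the data were seen. Fits were tested on simulated data. With 18.9 to 29.3 M counts a library, SRXN1 was the member with the lowest counts, with standard errors of 0.31 to 0.59.

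Deviations from the group means of same-numbered samples correlated above 0.1 in every pair of the 6 comparisons with 3 pairs (lowest 0.14, highest 0.87), so these were taken as paired. The study gives 3 independent experiments for its RNA-seq and splits a parental culture within each, but the sources used here do not say that a replicate number marks an experiment, so the pairing rests on the labels' numbers and this check. The other 4 had 2 pairs (-0.42 to 0.26).

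The members and the gene lists were chosen with earlier results of these data known. Beside the members, the label checks (BRCA2, CTNNB1, AXIN2), NFE2L2, KEAP1 and SLC3A2, the text names from up to 3 called genes with the largest rise and fall in each list and comparison with a mean of at least 100 normalised counts, and the 5 genes most like SLC7A11. YPEL2, ABTB1, PDCD4, MLYCD and ATF4 were chosen after their values were seen.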

Additional observations from a re-analysis of the deposited data

How the results depend on the processing

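Among the values of single genes the text reports, 350 alternative values kept their direction and side of the threshold, 18 gained a call, 24 lost it and 15 turned direction. Of the 9 genes, edgeR called 1 for BRCA2 depletion under GSK3i, 0 for BRCA2 depletion under both agents, 2 for GSK3i in proficient cells and 0 for siβ-catenin under GSK3i in proficient cells. One model over all groups called 1 for BRCA2 depletion in untreated cells, 1 under GSK3i, and 0 for GSK3i in proficient cells. With the replicate block, 1 was called for BRCA2 depletion with siβ-catenin, 2 under both agents, 0 for GSK3i in proficient cells and 0 for siβ-catenin under GSK3i in proficient cells, where OSGIN1 turned to -0.11. In the comparisons whose numbers pair the samples, the block changed no member's call other than those given beside the results. With siβ-catenin alone and with GSK3i in proficient cells only 2 pairs exist, so SLC7A11 (-1.86, DESeq2 adjusted p = 0.263) and OSGIN1 (1.10, DESeq2 adjusted p = 0.113) share only a number there. For GSK3i with siβ-catenin in proficient cells, leaving out both doubted libraries gave 2 called members. The causes were not tested.

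When each library was left out in turn, members called ranged from 1 to 3 for BRCA2 depletion in untreated cells, 1 to 4 with siβ-catenin, 1 to 2 under both agents, 1 to 2 for GSK3i in proficient and 1 to 5 in deficient cells, 0 to 3 for siβ-catenin under GSK3i in proficient and 1 to 2 in deficient cells, and 0 to 1 in the BRCA2 by GSK3i interaction. SLC7A11 could be among the members called in these counts and those above. Against untreated libraries its calls are a description, since it was chosen on them. OSGIN1 ranged from -0.20 to 0.55 for BRCA2 depletion in untreated cells and from -1.49 to 0.73 with siβ-catenin, where HMOX1 ranged from -0.05 to 1.53. SLC7A11 ranged from -0.01 to 0.61 for GSK3i in proficient cells, from -0.22 to 0.08 for siβ-catenin under GSK3i in deficient cells, and from -0.29 to 1.98 in the BRCA2 by GSK3i interaction. For GSK3i with siβ-catenin in proficient cells, SLC7A11 ranged from -1.82 to 0.47, HMOX1 from -0.22 to 1.37 and OSGIN1 from -0.37 to 1.86. OSGIN1 ranged from -0.24 to 0.55 for siβ-catenin under GSK3i in proficient cells.

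Over all genes, edgeR called 326 (DESeq2 1187) for BRCA2 depletion in untreated cells, 645 (1112) under GSK3i and 483 (1319) under both agents. For siβ-catenin under GSK3i it called 183 (836) in proficient and 267 (939) in deficient cells. The replicate block gave 2020 (4888) for BRCA2 depletion with siβ-catenin and 264 (79) for the BRCA2 by GSK3i interaction, which was 42 without both doubted libraries. For GSK3i with siβ-catenin in proficient cells edgeR called 0 genes (278 at an unadjusted p under 0.05, DESeq2 9), the block 3 and 1 model over all groups 1, and without both doubted libraries, where the filter could drop no gene, DESeq2 called 1099. In the interactions edgeR called 0 and 0 (2807 and 324 at an unadjusted p under 0.05, DESeq2 79 and 1), and in the BRCA2 by siβ-catenin interaction the block called 4 and the fit without a filter 0. Leaving out 1 library gave 183 to 2147 genes for BRCA2 depletion in untreated cells, 614 to 1302 under GSK3i, 2879 to 4912 with siβ-catenin and 748 to 1607 under both agents. It gave 2825 to 4266 for GSK3i in proficient cells, 3 to 27 with siβ-catenin there and 2217 to 3583 with siβ-catenin in deficient cells. For siβ-catenin under GSK3i it gave 292 to 858 in proficient and 372 to 1036 in deficient cells, and for the interactions 12 to 910 and 0 to 11. The groups of 2 or 3 libraries limit the precision of every value, and SRXN1, at 33.3 to 105 normalised counts, had the fewest counts of the 9 genes.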
